A study of Mus musculus with 42 samples.

Results

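Non-proliferating (Ki67-) microglia sorted from the brains of 12-month-old APP/PS1 mice were compared with Ki67- microglia of WT mice of the same age. The comparison used 4 APP/PS1 and 3 WT libraries out of 42 in the series, and a gene was included where the mean of its deposited values reached 7 in either group, which held for 12070 of the 19151 genes. At the edge of this rule, Slx4 lay inside with a mean of 7.0 in its higher group, and Tpm2 lay outside with 6.999. All mice were male C57BL/6 animals, and the labels give no treatment of the mice. APP/PS1 mice carry a pair of transgenes with mutations of familial Alzheimer's disease, both driven by the mouse prion promoter and expressed mainly by neurons, and they deposit amyloid plaques as they age. The remaining libraries held Ki67+ and Ki67- microglia of both genotypes at 4, 6 and 12 months. Brains were perfused and dissociated, and the cells were fixed in paraformaldehyde, permeabilized, stained and sorted as nucleated CD11b and CD45 positive cells without Ki67 protein, a gate that also admits other macrophages. Each value is on a log2 scale whose exact transformation is not given in the sources used here, so differences are stated in units of this scale and not as folds. The labels do not tie libraries to single mice, so the spread between libraries may be technical. The p-values measure this spread as pooled over all 12 groups of the series and as left after the authors removed 10 surrogate variables.

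Microglia are the resident macrophages of the brain. In a healthy brain they express a homeostatic program that depends on TGF-beta signalling and on the transcription factor Sall1. Around amyloid plaques they switch to a disease-associated program, in which the lipid-sensing receptor TREM2 signals through its adaptor TYROBP and genes for lipid uptake, lysosomal degradation and secreted factors are induced. Ki67 is a nuclear protein of cycling cells, so the Ki67- gate holds the resting majority of the population.

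Differences were tested with limma on all 42 libraries in 12 groups, and a gene was called where its Benjamini-Hochberg adjusted p over 14910 fitted genes was below 0.05. Of the 12070 genes, 1259 were called higher in APP/PS1 (10.4%) and 1146 lower (9.49%), 2405 in all (19.9%). Of these, 532 of those higher and 321 of those lower had a mean below 7 in the other group and so entered only through the group where they are high. With a mean of at least 7 over the 7 libraries instead, 11130 genes remained, of which 1115 were called higher and 1021 lower. The median difference was 1.22 among the genes called higher and -1.14 among those called lower, and over all 12070 genes it was -0.026. The differences of called genes reached further upwards, to 5.77, than downwards, to -2.75. A difference of at least 2 was found for 106 genes called higher and for 39 called lower. The 3 WT libraries lay very close to each other, with a median SD of 0.0318 per gene against 0.368 in the 4 APP/PS1 libraries. Values of the 2 groups did not overlap for 5854 genes (48.5%), called or not, with APP/PS1 above in 23.2% and below in 25.3%. Of the genes called, 1246 of 1259 higher and 1129 of 1146 lower did not overlap. Where a called gene is described below as separate between the groups, this thus adds no support to its call. The closeness of the WT libraries was not taken on its own as a measure of replicate error. It still enters the SE and p-values of the main fit, whose spread was pooled over all 12 groups. When the spread was taken from the 4 APP/PS1 libraries alone, 373 genes were called higher and 310 lower, and 99 genes called higher and 42 called lower were called in all 21 alternative analyses (185 and 107 in the 20 without the run of libraries 4290 to 4293 described below). Without WT replicate 1, 2 or 3, the counts were 838, 837 and 832 higher and 701, 684 and 691 lower. By their library numbers the 7 libraries fall into 2 runs. In the run of 4274 to 4277 (2 libraries of each genotype) 792 genes were called higher and 635 lower, and in the run of 4290 to 4293 (1 WT and 2 APP/PS1 libraries) 149 and 85. The spread in these fits came in large part from the other groups, and in the second run the lone WT library was assumed to vary like them. Of the 122 genes chosen by rule for naming, 29 lost their call when WT replicate 1, 2 or 3 was left out in turn. Genes called in all 21 alternatives were found in the lists for the disease-associated program (21 genes), lysosomal proteins (8), lipid handling (6), glycolysis (4), TREM2 signalling (2), chemokines and cytokines (2), Alzheimer's disease risk (2), autophagy (1), the cell cycle (1) and markers of microglia (1) and of perivascular macrophages and monocytes (1), and among the genes named by the study (4), while every other list had 0.

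**Figure D1:**
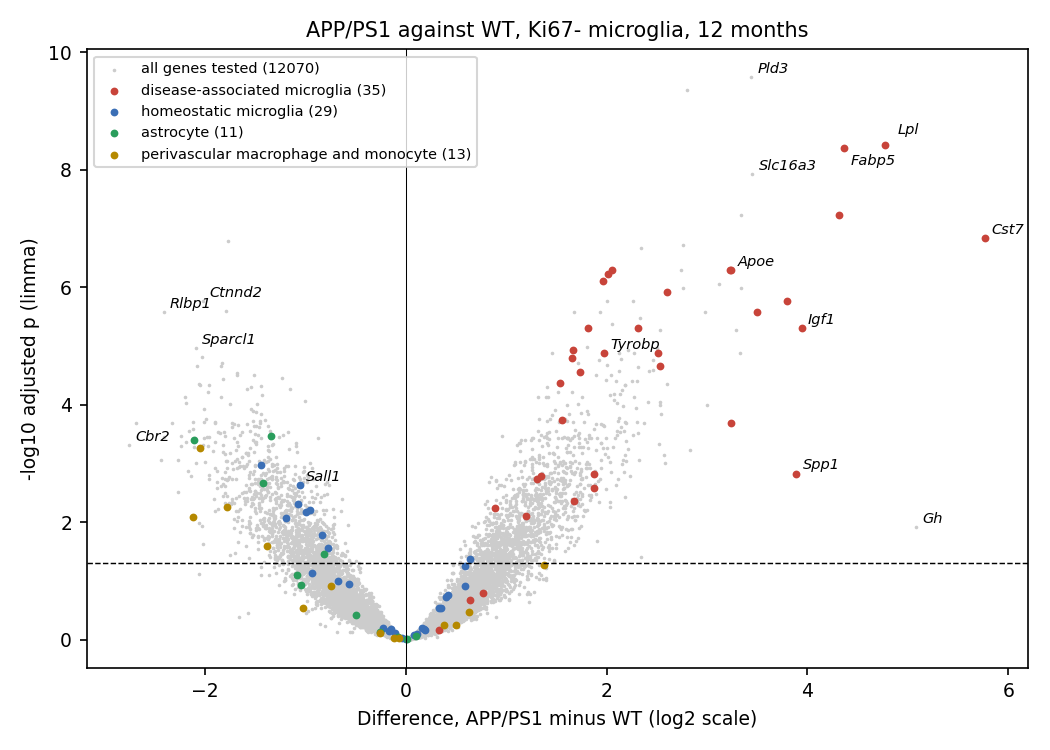
APP/PS1 minus WT difference in 12-month Ki67- microglia (x axis, log2 scale) against the -log10 of the limma adjusted p (y axis) for each of 12070 genes, with 4 gene lists in colour and the 0.05 threshold as a dashed line. The disease-associated list lies to the upper right with Cst7 farthest out at 5.77, and the astrocyte and perivascular macrophage lists hold calls on the lower side only.

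The libraries carried the transcripts of microglia. The mean level of 10 microglial markers was 12.88 in each WT library and ranged from 12.75 to 13.09 in the APP/PS1 libraries, and 3 of the 10 were called, Ptprc as higher and Sall1 and Tmem119 as lower, beside 19.9% of all genes. Cx3cr1, P2ry12, Csf1r, Aif1, Itgam and Fcrls did not pass the test. The mean level of 15 neuronal markers stayed near 7 in all 7 libraries, with none of 7 tested members called by limma and 0 at an unadjusted p under 0.05. Map2 and Syt1 were below the filter. The counts for markers of other cells stand beside 10.4% of all genes called higher and 9.49% called lower. Mean levels of 12 astrocyte markers ran from 8.59 to 8.70 in the WT libraries and from 7.63 to 8.48 in the APP/PS1 libraries, with 4 of 11 tested members lower. Those of 13 markers of perivascular macrophages and monocytes ran from 8.55 to 8.57 in the WT libraries and from 7.92 to 8.26 in the APP/PS1 libraries, with 4 of 13 lower. Those of 13 oligodendrocyte markers ran from 8.44 to 8.51 in the WT libraries and from 8.76 to 9.39 in the APP/PS1 libraries, with 2 of 12 higher. Of the endothelial and mural markers 1 was higher and 2 were lower out of 6 tested (Cldn5 and Cdh5 were below the filter), with mean levels of 15 markers at 7.12 to 7.20 in the WT libraries and from 6.91 to 7.09 in the APP/PS1 libraries. Of the lymphocyte and granulocyte markers only Cd4 was called out of 7 tested, as lower, with mean levels of 14 markers at 7.79 to 7.83 in the WT libraries and from 6.99 to 7.48 in the APP/PS1 libraries. The part of these cells in the results was not tested. In such bulk samples, fewer cells of a type and less RNA per cell cannot be told apart.

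The counts of genes called in this and the following lists stand beside 10.4% of all genes called higher and 9.49% called lower. Counts at an unadjusted p under 0.05 (limma) stand beside 2100 higher and 2050 lower of all 12070 genes. List members that entered only through the group where they are high are included in these counts. Of 35 genes of the disease-associated program tested, 32 were higher in APP/PS1, none was lower, and the median difference was 1.98. The mean level of the list was 10.12, 10.12 and 10.11 in the WT libraries and 12.26, 12.60, 12.67 and 12.54 in the APP/PS1 libraries. All APP/PS1 libraries thus lay more than 2 units above every WT library. Of the 32 genes, 21 were called in all 21 alternatives. At an unadjusted p under 0.05, 33 were higher and 0 lower. Lgals3 (0.33, adjusted p = 0.697), Ccl3 (0.64, adjusted p = 0.209) and Ccl4 (0.77, adjusted p = 0.158) did not pass.

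Cst7 encodes cystatin F, an inhibitor of lysosomal cathepsins, and lies on GRCm38 chromosome 2, 150570415 to 150578944. Its values were 7.79, 7.75 and 7.77 in the WT libraries and 13.01, 13.45, 13.94 and 13.75 in the APP/PS1 libraries. The groups were far apart, and the difference of 5.77 ± 0.56 (SE) was the largest of any gene called (adjusted p = 1.46e-07). Axl, a receptor tyrosine kinase for apoptotic cell recognition, was at 8.42, 8.49 and 8.59 in the WT libraries and 12.13, 11.71, 12.12 and 10.95 in the APP/PS1 libraries. Its lowest APP/PS1 value, in replicate 4, was still over 2 units above the highest WT value, and the difference was 3.23 ± 0.34 (SE) (adjusted p = 5.05e-07). The integrin Itgax, the melanosomal glycoprotein Gpnmb and the pyrophosphate transporter Ank differed by 3.50, 3.79 and 4.31, with adjusted p of 2.67e-06, 1.72e-06 and 5.96e-08.

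**Figure D2:**
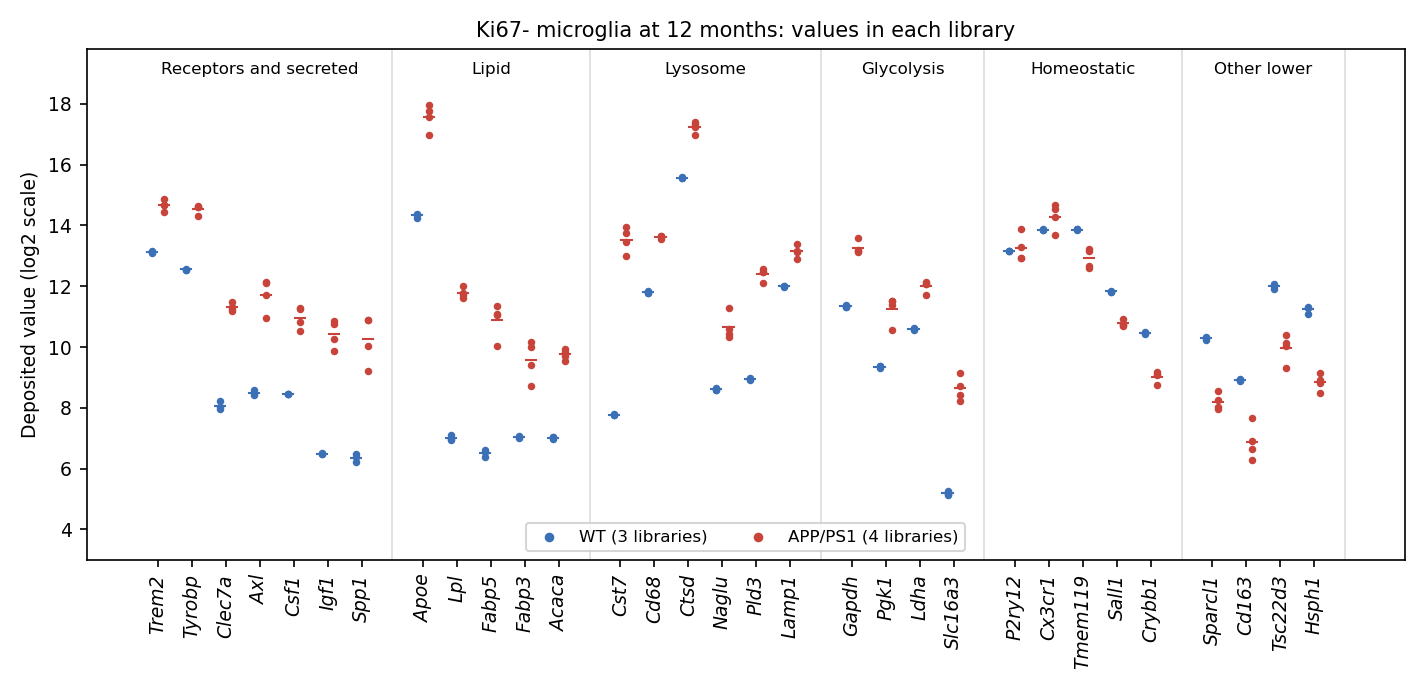
Deposited values (y axis, log2 scale) of 31 genes in each of the 3 WT libraries (blue) and the 4 APP/PS1 libraries (red), by group, with short lines at the group means. The 2 genotypes are apart for the receptor, lipid, lysosome and glycolysis genes shown, and P2ry12 and Cx3cr1, which did not pass the test, lie at like levels in both.

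The receptor TREM2 and its adaptor were higher as well. Trem2 was at 13.11, 13.14 and 13.14 in the WT libraries and 14.45, 14.87, 14.66 and 14.66 in the APP/PS1 libraries. Tyrobp was at 12.55, 12.58 and 12.55 in the WT libraries and 14.31, 14.63, 14.61 and 14.59 in the APP/PS1 libraries. Every APP/PS1 library exceeded every WT library for both, with differences of 1.53 ± 0.22 (SE) and 1.98 ± 0.26 (SE) and adjusted p of 4.24e-05 and 1.32e-05. Among 19 receptors and signalling proteins that act through immunoreceptor tyrosine motifs, 6 were higher, none was lower, and the median difference was 0.285. At an unadjusted p under 0.05 the counts were 7 and 1. The beta-glucan receptor Clec7a differed by 3.24 ± 0.54 (SE) (adjusted p = 0.000208), and the inhibitory receptor Lilrb4a by 1.57 (adjusted p = 0.00264). The Fc receptor chains Fcer1g (0.78, adjusted p = 0.01) and Fcgr2b (0.82, adjusted p = 0.00897) were the others. Of the signalling proteins, Syk and Plcg2 did not pass, with -0.73 for the kinase Syk (adjusted p = 0.0712) and -0.20 for the phospholipase Plcg2 (adjusted p = 0.737).

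Genes for lipid uptake and binding showed some of the largest differences. Of 28 lipid and cholesterol genes tested, 10 were higher, 1 was lower, and the median difference was 0.347. Lpl, the lipoprotein lipase that releases fatty acids from lipoproteins (GRCm38 chromosome 8, 68880491 to 68907448), was at 7.10, 6.99 and 6.93 in the WT libraries and 11.62, 11.71, 12.02 and 11.76 in the APP/PS1 libraries. The difference of 4.77 ± 0.38 (SE) had an adjusted p of 3.73e-09, and the 4 APP/PS1 libraries lay close to each other. Fabp5, a fatty-acid binding protein (chromosome 3, 10012548 to 10016607), was at 6.60, 6.54 and 6.39 in the WT libraries and 10.02, 11.08, 11.36 and 11.05 in the APP/PS1 libraries. APP/PS1 replicate 1 was about 1 unit below the other three and still over 3 units above WT, with a difference of 4.37 ± 0.35 (SE) (adjusted p = 4.28e-09).

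Apoe encodes the main apolipoprotein of the brain, a ligand of TREM2. Its values were 14.39, 14.35 and 14.26 in the WT libraries and 16.99, 17.58, 17.76 and 17.98 in the APP/PS1 libraries. All APP/PS1 libraries were higher, by 3.24 ± 0.34 (SE) on average (adjusted p = 5.05e-07). Acaca, the acetyl-CoA carboxylase that commits carbon to fatty acid synthesis, was at 7.04, 7.03 and 6.99 in the WT libraries and 9.71, 9.94, 9.83 and 9.53 in the APP/PS1 libraries. It differed by 2.74 ± 0.29 (SE) (adjusted p = 5.05e-07), whereas the fatty acid synthase Fasn differed by -0.34 (adjusted p = 0.561). Fabp3 (2.53), the oxysterol-producing Ch25h (2.53), the lysosomal sterol carrier Npc2 (1.46), Srebf2 (1.37), Scd2 (1.03) and the lipid droplet protein Plin2 (0.98) completed the 10 calls, with the highest adjusted p, 0.0466, for Scd2. Sqle, an enzyme of sterol synthesis, was lower (-1.18, adjusted p = 0.0198). The cholesterol exporters Abca1 and Abcg1 differed by -0.37 and 0.04 and did not pass (adjusted p = 0.363 and 0.959).

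Of 39 lysosomal hydrolases and membrane proteins tested, 18 were higher, 0 were lower, and the median difference was 0.542. The mean level of 40 such genes was 11.46, 11.47 and 11.49 in the WT libraries and 12.20, 12.13, 12.15 and 12.14 in the APP/PS1 libraries. The 4 APP/PS1 libraries lay close together and above all WT libraries. At an unadjusted p under 0.05, 21 were higher and 2 lower. Of the 18, 7 are in the disease-associated list too. The cathepsins Ctsl (2.31), Ctsz (1.97), Ctsd (1.66), Ctsb (1.65), Ctsa (0.96) and Ctss (0.87) were all higher, with the highest adjusted p, 0.0103, for Ctss. Ctsc, Ctsf, Ctsh and Ctso did not pass, with differences of 0.03, -0.56, 0.21 and 0.54 and adjusted p of 0.961, 0.137, 0.602 and 0.178.

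Cd68, a macrophage endolysosomal glycoprotein, was at 11.77, 11.79 and 11.84 in the WT libraries and 13.65, 13.64, 13.55 and 13.63 in the APP/PS1 libraries. Naglu, which degrades heparan sulfate, was at 8.57, 8.59 and 8.65 in the WT libraries and 11.28, 10.32, 10.61 and 10.44 in the APP/PS1 libraries. Both groups were separate for both genes, with differences of 1.82 ± 0.23 (SE) and 2.06 ± 0.25 (SE) and adjusted p of 4.93e-06 and 4.28e-06. The tetraspanin Cd63 (2.02), the hexosaminidase subunit Hexa (1.32), the peptidase Tpp1 (1.27), the membrane protein Lamp1 (1.15) and progranulin, Grn (1.13), were also higher, and each of these adjusted p was at or below 0.000441. Psap, Lgmn and Neu1 differed by -0.13, 0.06 and -0.25 and did not pass (adjusted p = 0.743, 0.906 and 0.649).

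Of 16 subunits of the vacuolar proton pump, which acidifies lysosomes, 6 were higher, 0 were lower, and the median difference was 0.463. At an unadjusted p under 0.05 the counts were 7 and 0. The largest were Atp6v1b2 (1.58, adjusted p = 0.000997), Atp6v0d2 (1.48, adjusted p = 0.000987) and Atp6v1c1 (1.30, adjusted p = 0.00258). Of 30 autophagy genes, 4 were higher and 1 was lower, with a median of 0.087. Over all genes the shares were 10.4% higher and 9.49% lower. Tecpr1, which tethers autophagosomes to lysosomes, was at 7.50, 7.48 and 7.43 in the WT libraries and 9.64, 9.95, 9.91 and 9.72 in the APP/PS1 libraries. The ubiquitin-like conjugation enzyme Atg7 (1.74, adjusted p = 0.00132), Wipi2 (0.99, adjusted p = 0.0252) and the cargo receptor Sqstm1 (0.64, adjusted p = 0.0306) were the other genes called higher. The lipid kinase Pik3c3 was lower (-1.04, adjusted p = 0.0315).

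The gene with the lowest p of all was Pld3, a lysosomal exonuclease of the phospholipase D family that stood outside the lists above (GRCm38 chromosome 7, 27532000 to 27553218). It was at 8.98, 8.96 and 8.93 in the WT libraries and 12.10, 12.46, 12.57 and 12.45 in the APP/PS1 libraries. All APP/PS1 libraries lay over 3 units above WT, with a difference of 3.44 ± 0.23 (SE) and an adjusted p of 2.68e-10. Baiap2l2, a membrane-bending adaptor, differed by 2.80 ± 0.20 (SE) (adjusted p = 4.41e-10). Both were called in all 21 alternatives. Younger WT Ki67- microglia had Pld3 at 10.84 at 4 months and 10.94 at 6 months, between the 2 groups at 12 months.

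Lysosomal genes often carry the E-box CACGTG, the core of the CLEAR element that the factors TFEB and TFE3 bind. RefSeq promoter windows of 300 bases, from 250 bases before to 50 after each start (GRCm38.p6), were matched by symbol for 9266 of the 12070 genes. The window held CACGTG, which reads the same on both strands, in 11.7% of all matched genes, in 11.9% of 976 genes called higher and in 10.4% of 866 called lower. Of 32 lysosomal genes with a window, 11 held it (34.4%), and of the 17 called higher, 6 held it (35.3%). Of 27 disease-associated genes called higher with a window, 3 held it (11.1%). The PU.1 site AGGAAGT, on either strand, stood in 12.9% of genes called higher, 10.0% of those called lower and 1016 of all 9266, and the AP-1 site TGACTCA, on either strand, in 4.51%, 6.35% and 4.37%. A match is a description of these letters and no evidence of binding.

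Windows were placed on RefSeq starts, which can lie inside a gene as GENCODE annotates it. Of 7 called genes of the lysosomal and disease-associated lists with the E-box in the 250 bases before the start, this window lay inside the GENCODE gene in part or whole for 5, Naglu (82 bases), Ctsd (211), Ctsl, Hif1a and Ctsa (all 250 each). The windows of the other two, Lamp1 and Glb1, lay before the gene but for 2 bases in Glb1, and they are shown 5′ to 3′ for that reason, a choice made after the windows were seen. Capitals mark each CACGTG.
Lamp1 (chr8:13158911-13159160, + strand): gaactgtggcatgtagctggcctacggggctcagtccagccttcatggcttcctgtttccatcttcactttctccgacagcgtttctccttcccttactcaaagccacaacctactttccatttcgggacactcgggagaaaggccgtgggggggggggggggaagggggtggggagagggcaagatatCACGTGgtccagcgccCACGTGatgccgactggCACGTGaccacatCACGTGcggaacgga
Glb1 (chr9:114400828-114401077, + strand): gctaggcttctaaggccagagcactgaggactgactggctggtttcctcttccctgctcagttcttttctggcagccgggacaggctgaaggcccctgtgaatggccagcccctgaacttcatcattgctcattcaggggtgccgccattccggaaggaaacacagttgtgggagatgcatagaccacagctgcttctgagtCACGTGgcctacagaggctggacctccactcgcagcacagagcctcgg

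The E-box began at -61, -45, -28 and -15 in Lamp1 and at -48 in Glb1, counted in bases from the RefSeq start. Lamp1 was at 12.01, 12.00 and 11.99 in the WT libraries and 13.40, 12.91, 13.13 and 13.16 in the APP/PS1 libraries. Glb1, the lysosomal beta-galactosidase, was at 9.11, 9.16 and 9.31 in the WT libraries and 11.62, 10.73, 10.57 and 9.76 in the APP/PS1 libraries. Both genes were separate between the groups, with differences of 1.15 ± 0.21 (SE) and 1.48 ± 0.38 (SE) (adjusted p = 0.000399 and 0.00897). The transcripts of Tfeb (-0.06, adjusted p = 0.925) and Tfe3 (-0.23, adjusted p = 0.605) did not pass the test.

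Of 19 genes of glycolysis and lactate transport tested, 7 were higher, 2 were lower, and the median difference was 0.615. Gapdh was at 11.33, 11.37 and 11.32 in the WT libraries and 13.16, 13.59, 13.19 and 13.11 in the APP/PS1 libraries. The phosphoglycerate kinase Pgk1 was at 9.39, 9.36 and 9.30 in the WT libraries and 11.51, 11.53, 11.38 and 10.57 in the APP/PS1 libraries. Neither gene overlapped between the groups, with differences of 1.92 ± 0.26 (SE) and 1.90 ± 0.27 (SE) and adjusted p of 1.72e-05 and 3.14e-05. Tpi1 (1.67), lactate dehydrogenase Ldha (1.40), Aldoa (0.95) and Pkm (0.86) followed, with the highest adjusted p, 0.0107, for Pkm. Gapdh and several others have processed pseudogenes, and reads shared with such copies make their values less certain.

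Slc16a3, the monocarboxylate transporter that exports lactate, was at 5.14, 5.17 and 5.25 in the WT libraries and 8.44, 8.24, 9.15 and 8.73 in the APP/PS1 libraries. The difference of 3.45 ± 0.29 (SE) (adjusted p = 1.2e-08) stood beside younger WT Ki67- microglia at 8.24 at 4 months and 7.80 at 6 months. Hif1a, a transcription factor that induces glycolytic genes, was at 8.46, 8.46 and 8.46 in the WT libraries and 9.17, 10.27, 10.29 and 10.31 in the APP/PS1 libraries. APP/PS1 replicate 1 lay about 1 unit below the other three, and the difference was 1.55 ± 0.26 (SE) (adjusted p = 0.000185). Pfkp (-1.71, adjusted p = 0.00478) and the astrocyte-enriched Aldoc (-2.10, adjusted p = 0.000399) were lower. Hexokinases did not pass, with -0.41 for Hk1 (adjusted p = 0.402) and -0.20 for Hk2 (adjusted p = 0.69).

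Of 42 subunits of oxidative phosphorylation, 9 were higher and 1 was lower, with a median of 0.323. The complex I subunit Ndufa1 (1.60, adjusted p = 0.00115), Cox6a1 (1.33, adjusted p = 0.000766) and Atp5j (1.20, adjusted p = 0.0028) led, and Cox5a was lower (-0.85, adjusted p = 0.0126). Beside 10.4% of all genes called higher and 9.49% lower, 2 of 18 tricarboxylic acid cycle genes were higher and 1 was lower. These were Suclg2 (1.46, adjusted p = 0.027), citrate synthase Cs (0.71, adjusted p = 0.0348) and malate dehydrogenase Mdh2 (-0.77, adjusted p = 0.0268).

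**Figure D3:**
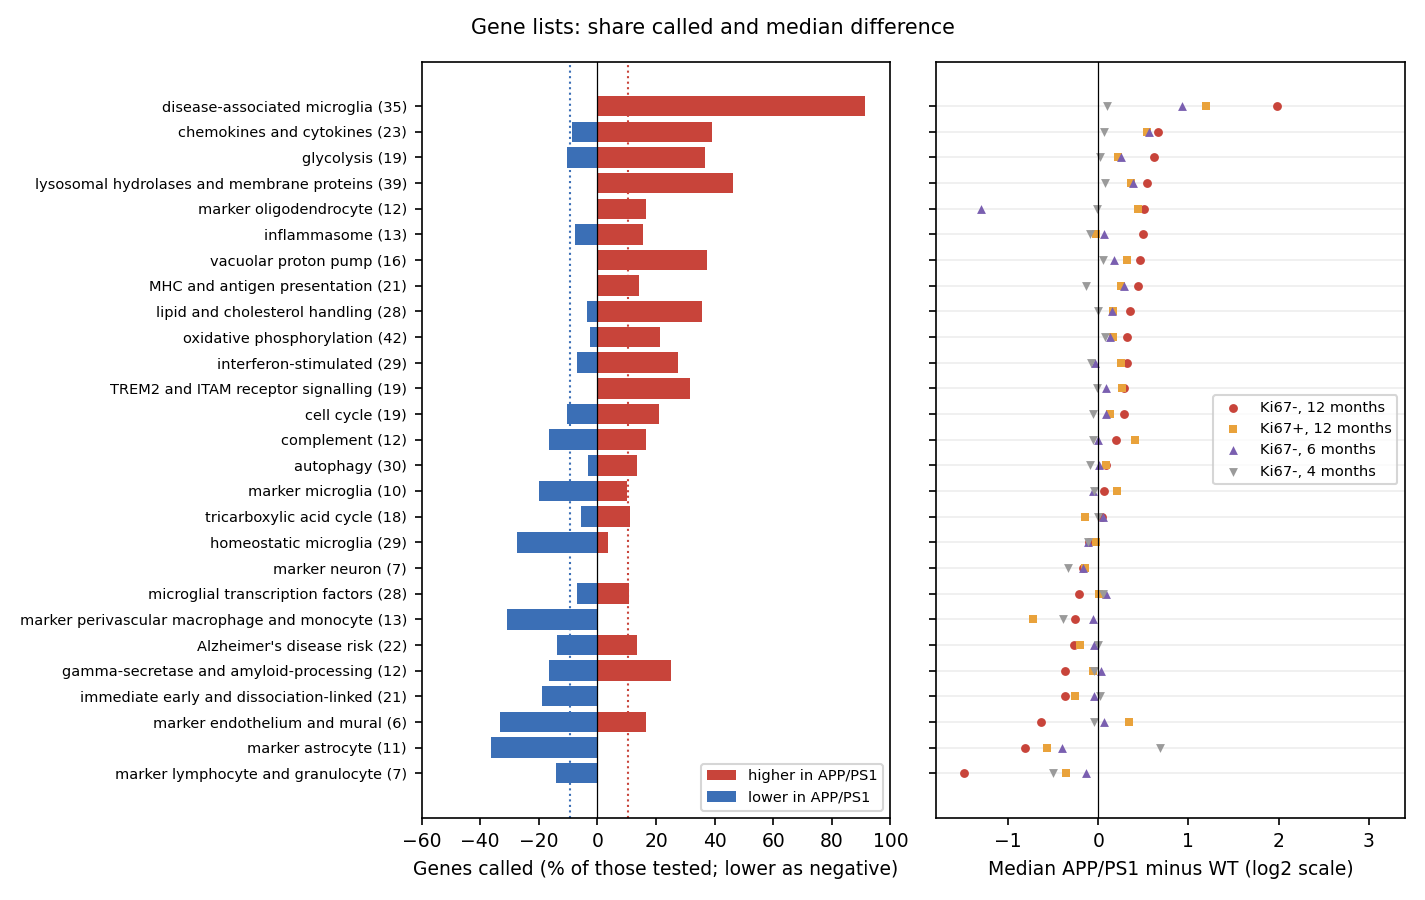
Left, genes of each list called higher (red) or lower (blue, drawn as negative) in APP/PS1 Ki67- microglia at 12 months, as a percentage of the members tested, whose number is in brackets, with dotted lines at the shares over all 12070 genes (10.4% higher, 9.49% lower). Right, the median APP/PS1 minus WT difference of each list (log2 scale) at 12 months in both gates and at 6 and 4 months in Ki67- microglia. The disease-associated list has the highest share called higher and the highest median of the lists shown.

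Secreted factors were led by growth factors and a matrix protein. Of 23 chemokine and cytokine genes tested, 9 were higher, 2 were lower, and the median difference was 0.667. Insulin-like growth factor, Igf1, was at 6.48, 6.48 and 6.52 in the WT libraries and 9.87, 10.28, 10.74 and 10.85 in the APP/PS1 libraries. Csf1, a ligand of the receptor that maintains microglia, was at 8.46, 8.47 and 8.44 in the WT libraries and 10.82, 11.24, 11.27 and 10.54 in the APP/PS1 libraries. Osteopontin, Spp1, was at 6.47, 6.40 and 6.23 in the WT libraries and 9.21, 10.88, 10.89 and 10.04 in the APP/PS1 libraries. The differences were 3.94 ± 0.49 (SE), 2.51 ± 0.33 (SE) and 3.89 ± 0.80 (SE), with adjusted p of 4.94e-06, 1.32e-05 and 0.00149, and Spp1 varied most between APP/PS1 libraries. Ccl6 (1.88), Cxcl10 (1.56), Cxcl14 (1.14), Cxcl16 (1.11), Tnf (0.89) and Ccl12 (0.82) were also higher, with the highest adjusted p, 0.0453, for Ccl12. The monocyte attractant Ccl7 (-2.68, adjusted p = 0.000206) and Tgfb2 (-1.06, adjusted p = 0.0217) were lower. Il1b (1.03, adjusted p = 0.2) and Il6 (0.62, adjusted p = 0.196) did not pass.

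Of 29 interferon-stimulated genes, 8 were higher and 2 were lower, with a median of 0.317. Among the 8, Usp18, Oasl2 and Mx1 had 12-month WT means of 5.77, 6.11 and 5.96 and so entered only through the APP/PS1 group. Usp18, a negative regulator of interferon signalling, was at 5.81, 5.76 and 5.73 in the WT libraries and 8.37, 8.59, 7.68 and 8.58 in the APP/PS1 libraries, and differed by 2.54 ± 0.41 (SE) (adjusted p = 0.000142). Ifi27l2a (1.79, adjusted p = 0.00103) and Oasl2 (1.67, adjusted p = 0.0033) were higher, whereas Gbp2 (-2.44, adjusted p = 0.000883) and Mx2 (-1.19, adjusted p = 0.0203) were lower. Ifit1 and Isg15 did not pass, with differences of 0.31 and 0.63 and adjusted p of 0.76 and 0.153. Of 21 antigen presentation genes, 3 were higher and 0 were lower (5 and 0 at an unadjusted p under 0.05), all of the MHC class I complex, with B2m at 1.35 (adjusted p = 0.00164), H2.D1 at 1.38 (adjusted p = 0.00106) and H2.K1 at 0.68 (adjusted p = 0.0402). For comparison, 10.4% of all genes were called higher and 9.49% lower. Class I genes are near-identical copies, and reads may be split between them.

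Of 12 complement genes, 2 were higher and 2 were lower, beside 10.4% and 9.49% of all genes. The anaphylatoxin receptor C3ar1 (1.14, adjusted p = 0.000614) was among those higher, and the alternative pathway factors Cfb (-1.51, adjusted p = 0.000399) and Cfp (-1.59, adjusted p = 0.0257) were lower. C1qa, C1qb and C1qc differed by 0.38, 0.24 and 0.33 and did not pass (adjusted p = 0.28, 0.528 and 0.258). Of 13 inflammasome genes, Nek7 (1.03, adjusted p = 0.00484) and Casp4 (0.89, adjusted p = 0.0212) were higher and Txnip (-1.19, adjusted p = 0.00861) was lower. Nlrp3 (0.50, adjusted p = 0.279), Pycard (0.61, adjusted p = 0.17) and Casp1 (-0.22, adjusted p = 0.743) did not pass.

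Of 29 genes of the homeostatic program tested, 8 were lower, 1 was higher, and the median difference was -0.108. Tmem119, a surface marker of resident microglia, was at 13.85, 13.88 and 13.87 in the WT libraries and 13.16, 12.59, 12.68 and 13.24 in the APP/PS1 libraries. Sall1, a transcription factor of microglial identity, was at 11.82, 11.83 and 11.86 in the WT libraries and 10.76, 10.94, 10.74 and 10.69 in the APP/PS1 libraries. Crybb1, a homeostatic marker, was at 10.43, 10.48 and 10.50 in the WT libraries and 8.74, 9.07, 9.19 and 9.12 in the APP/PS1 libraries. All APP/PS1 libraries were below all WT libraries for these 3 genes, as for 1129 of the 1146 genes called lower. The differences were -0.95 ± 0.23 (SE), -1.05 ± 0.23 (SE) and -1.44 ± 0.29 (SE), with limma adjusted p of 0.00632, 0.00232 and 0.00107. The ectonucleotidase Entpd1 (-1.07), Txnip (-1.19), Bin1 (-0.99) and Rhob (-0.83) were among the other genes called lower, with the highest adjusted p of these, 0.0168, for Rhob.

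The purinergic receptor P2ry12 was at 13.15, 13.14 and 13.16 in the WT libraries and 12.93, 12.94, 13.29 and 13.88 in the APP/PS1 libraries. Cx3cr1, the fractalkine receptor, was at 13.89, 13.85 and 13.85 in the WT libraries and 14.53, 13.67, 14.28 and 14.66 in the APP/PS1 libraries. Both overlapped between the groups, and neither difference passed, with 0.11 ± 0.24 (SE) and 0.42 ± 0.21 (SE) (adjusted p = 0.815 and 0.17). The leukocyte phosphatase Ptprc, which encodes the CD45 protein used in the sort, was at 9.67, 9.62 and 9.53 in the WT libraries and 11.13, 11.13, 10.95 and 11.30 in the APP/PS1 libraries and was called higher (1.52, adjusted p = 6.01e-05). Of 28 microglial transcription factors, Hif1a, Irf8 (0.70, adjusted p = 0.04) and Mef2c (0.64, adjusted p = 0.0424) were higher and Sall1 and Stat3 (-0.82, adjusted p = 0.0322) were lower. These calls stand beside 10.4% of all genes called higher and 9.49% called lower. Spi1, which encodes PU.1, differed by -0.29 (limma adjusted p = 0.389).

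The 8 genes with the lowest p on the lower side were of several kinds. Sparcl1, a secreted synaptogenic protein of astrocytes, was at 10.33, 10.31 and 10.23 in the WT libraries and 8.04, 8.26, 8.55 and 7.95 in the APP/PS1 libraries. Ctnnd2, a neural catenin, was at 9.08, 9.08 and 9.05 in the WT libraries and 7.04, 6.73, 7.29 and 7.17 in the APP/PS1 libraries. Rlbp1, a retinoid carrier of Müller glia, was at 8.66, 8.67 and 8.64 in the WT libraries and 6.11, 5.71, 6.63 and 6.54 in the APP/PS1 libraries. No library overlapped between the groups, with differences of -2.09 ± 0.27 (SE), -2.02 ± 0.23 (SE) and -2.41 ± 0.29 (SE) and adjusted p of 1.1e-05, 1.72e-06 and 2.67e-06. The adhesion molecule Ntm (-1.79, adjusted p = 2.5e-06) and the proteoglycan Bcan (-2.33, adjusted p = 0.000206) were lower too. Of the astrocyte markers, Aldoc, Gja1 (-1.42, adjusted p = 0.00218), Sox9 (-1.34, adjusted p = 0.000345) and Slc1a3 (-0.81, adjusted p = 0.0341) were called, and the defining marker Gfap had means below 7 in both groups and was not tested. Aqp4 differed by -0.50 (adjusted p = 0.378).

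Of 13 markers of perivascular macrophages and monocytes, 4 were lower and 0 were higher, against 5 and 1 at an unadjusted p under 0.05. Cd163, a hemoglobin scavenger receptor, was at 8.93, 8.95 and 8.87 in the WT libraries and 6.63, 7.67, 6.89 and 6.28 in the APP/PS1 libraries. Cbr2, a carbonyl reductase outside this list, was at 10.18, 10.26 and 10.13 in the WT libraries and 6.78, 7.49, 8.05 and 7.44 in the APP/PS1 libraries and had the largest fall of any gene called, -2.75 ± 0.50 (SE) (adjusted p = 0.000494). Cd163 differed by -2.05 ± 0.38 (SE) (adjusted p = 0.000548), the coagulation factor F13a1 by -2.12 (adjusted p = 0.00819), the hyaluronan receptor Lyve1 by -1.78 (adjusted p = 0.00558) and Plac8 by -1.38 (adjusted p = 0.0255). The defining markers Mrc1 (0.63, adjusted p = 0.34) and Ccr2 (-0.07, adjusted p = 0.939) did not pass.

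Tsc22d3, a glucocorticoid-induced leucine zipper protein, was at 11.93, 12.00 and 12.07 in the WT libraries and 10.15, 10.38, 10.03 and 9.32 in the APP/PS1 libraries. It differed by -2.03 ± 0.27 (SE) (adjusted p = 1.53e-05). The chaperones Hsph1 and Hspa1b differed by -2.40 and -2.27 (adjusted p = 0.000354 and 0.00302). Of 21 immediate early genes and genes linked to dissociation stress, 4 were lower and 0 were higher, with a median of -0.371, against 7 and 2 at an unadjusted p under 0.05. They were Hspa1b, Hspa1a (-1.75, adjusted p = 0.0368), Fosb (-1.30, adjusted p = 0.00409) and Socs3 (-0.83, adjusted p = 0.0396). Fos, Jun and Egr1 did not pass, with differences of -0.66, -0.14 and -0.28 and adjusted p of 0.153, 0.851 and 0.574. Unc5cl (-1.83), the kinase Map4k1 (-2.08) and X4933430I17Rik (-1.76) completed the 8 genes with the lowest p on this side, with the highest adjusted p, 2.15e-05, for Map4k1.

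The study names 7 genes for this comparison, and all 7 were called higher, with a median of 2.34. They were picked on these libraries, so the count is no independent evidence of their direction. Beside Tecpr1 (2.34, adjusted p = 2.18e-07), Fabp5 and Cxcl14 (adjusted p = 0.000442), they were the unconventional myosin Myo1e (3.34, adjusted p = 5.96e-08), Haghl (2.42, adjusted p = 2.66e-05), the palmitoyltransferase Zdhhc4 and Psen2. Zdhhc4 was at 6.24, 6.27 and 6.29 in the WT libraries and 6.57, 8.91, 8.82 and 8.37 in the APP/PS1 libraries, with APP/PS1 replicate 1 near the WT level, and differed by 1.90 ± 0.43 (SE) (adjusted p = 0.00333). Psen2, a catalytic subunit of gamma-secretase, was at 6.59, 6.56 and 6.43 in the WT libraries and 9.02, 8.77, 8.64 and 8.37 in the APP/PS1 libraries and differed by 2.17 ± 0.45 (SE) (adjusted p = 0.00139).

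Of 12 genes for amyloid processing, 3 were higher and 2 were lower, beside 10.4% and 9.49% of all genes. For each of those called, the mean of younger WT Ki67- microglia was nearer to APP/PS1 than to WT at 12 months. Beside Psen2, the amyloid-degrading proteases Ide (1.45, adjusted p = 0.00174) and Ece1 (1.75, adjusted p = 0.00124) were higher, and the gamma-secretase subunit Ncstn (-0.83, adjusted p = 0.0367) and the beta-secretase Bace1 (-1.13, adjusted p = 0.0288) were lower. App was at 11.62, 11.56 and 11.51 in the WT libraries and 10.17, 10.01, 10.74 and 10.99 in the APP/PS1 libraries and was called lower, with a difference of -1.09 ± 0.30 (SE) (adjusted p = 0.0134). Prnp, whose promoter drives the transgenes, was at 8.28, 8.23 and 8.13 in the WT libraries and 9.74, 9.48, 9.81 and 9.76 in the APP/PS1 libraries and was higher by 1.49 ± 0.33 (SE) (adjusted p = 0.0025). How far reads of the transgenes count towards mouse genes was not tested. Of 22 genes near risk loci of Alzheimer's disease, Apoe, Trem2 and Grn were higher and Bin1, Ms4a4a (-1.63, adjusted p = 0.0115) and Picalm (-0.72, adjusted p = 0.0436) were lower.

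Mki67, whose protein the gate excludes, was at 8.81, 8.84 and 8.80 in the WT libraries and 7.49, 8.13, 6.96 and 8.49 in the APP/PS1 libraries. The difference of -1.05 ± 0.42 (SE) did not pass (adjusted p = 0.0905). The WT Ki67- mean of 8.82 was above the mean of 7.73 in WT Ki67+ microglia of the same age, so Mki67 transcript did not follow the gate here. Birc5, a mitotic gene, did, with means of 6.22 in WT Ki67- and 9.18 in WT Ki67+ microglia. It is a single gene of the cell cycle list, and the gates were not tested against each other, so the list as a whole is not described by it. Of 30 cell cycle genes listed, 19 were tested, of which 4 were higher and 2 were lower. The replication genes Gins2 (2.61, adjusted p = 4.48e-05), Mcm3 (1.54, adjusted p = 0.00178), Mcm6 (1.43, adjusted p = 0.0308) and Mcm5 (1.29, adjusted p = 0.0168) were higher, and the mitotic genes Ccnb1 (-1.18, adjusted p = 0.0263) and Kif11 (-1.11, adjusted p = 0.0326) were lower. In the order given, the 4 replication genes had 12-month WT means of 5.82, 6.76, 6.37 and 6.21. They thus entered only through the APP/PS1 group, where they are high, and their count is no support for a rise of the list.

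The called genes were then set beside Ki67- microglia of younger WT mice, which the test of the 2 groups did not compare. For each gene the mean of the WT groups at 4 and 6 months was taken, and it was asked whether it lay nearer to WT or to APP/PS1 at 12 months. Of 1259 genes called higher, 449 (35.7%) had a younger WT mean nearer to WT at 12 months, and 810 had one nearer to APP/PS1. Of 1146 called lower, 280 (24.4%) lay nearer to WT and 866 nearer to APP/PS1. For the genes called higher, the median of WT at 12 months minus younger WT was -0.83, and that of APP/PS1 minus younger WT was 0.43. Genes were called on the same WT values at 12 months, so a gene with an unusually low or high WT value is more likely to be in these counts.

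All 32 disease-associated genes called higher, all 18 lysosomal genes and all 10 lipid genes had a younger WT mean nearer to WT at 12 months. For the 32, the median of WT at 12 months minus younger WT was -0.12, and that of APP/PS1 minus younger WT was 1.87. Apoe averaged 14.33 in WT at 12 months, and in younger WT it was 13.65 at 4 months and 14.05 at 6 months. Of 8 homeostatic genes called lower, 6 lay nearer to WT. The pattern was the reverse for others. Tecpr1 was at 9.33 at 4 months and 9.22 at 6 months in younger WT, close to 9.81 in APP/PS1 at 12 months and above 7.47 in WT. Rlbp1 was at 6.57 at 4 months and 6.02 at 6 months, near 6.25 in APP/PS1 and below 8.66 in WT at 12 months. Of the 7 genes the study names, 3 lay nearer to WT at 12 months and 4 nearer to APP/PS1, and of 4 astrocyte markers called lower, 1 and 3. The amyloid-processing genes called (3 higher, 2 lower) all lay nearer to APP/PS1, and so did Prnp and App. The same held for all cell cycle genes called (4 higher, 2 lower). Whether age or a property of the 3 WT libraries sets these values was not tested.

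**Figure D4:**
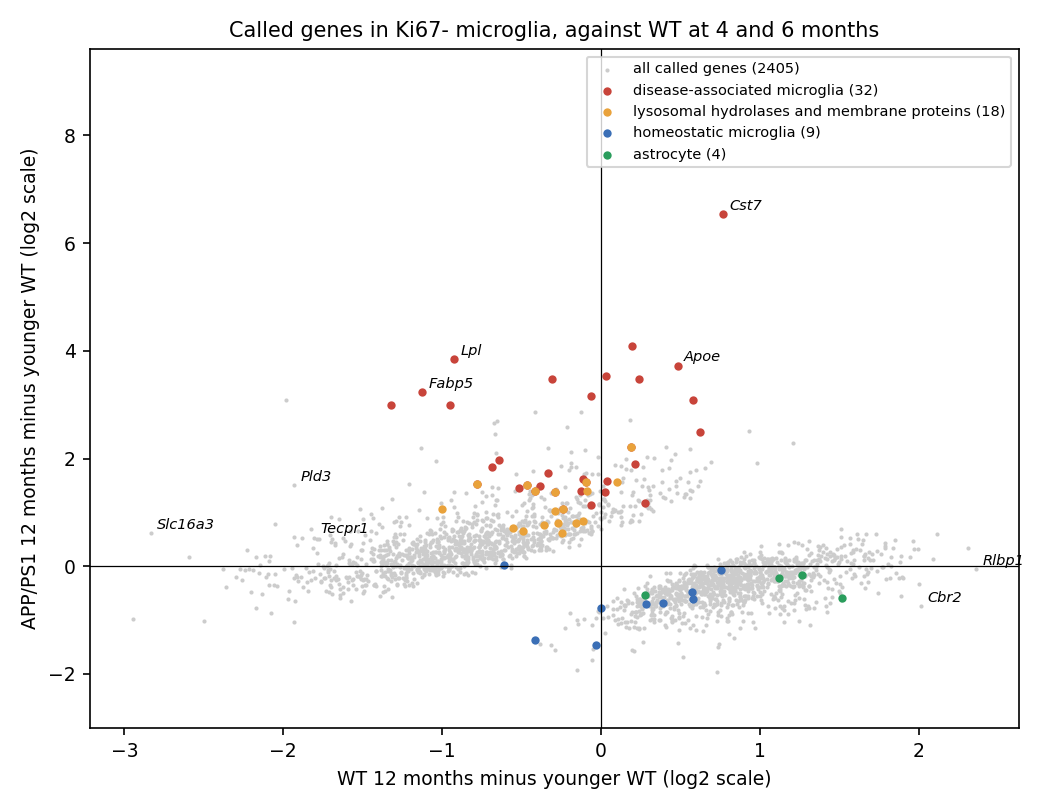
For each of 2405 called genes, the WT mean at 12 months minus the mean of the WT groups at 4 and 6 months (x axis, log2 scale) against the APP/PS1 mean at 12 months minus the same (y axis), all in Ki67- microglia. Disease-associated and lysosomal genes lie above the zero line of the y axis, while many other called genes lie along the zero line of the y axis, to either side in x.

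The same contrast in Ki67+ microglia at 12 months shares no library with this one. There, 624 of the 12070 genes were called higher (5.17%) and 445 lower (3.69%). The difference between both effects passed the test for 1065 genes, 544 with a more positive effect in Ki67- cells (4.51%) and 521 with a more negative one (4.32%). Without WT replicate 1, 2 or 3, the counts were 335, 336 and 342 positive and 304, 304 and 305 negative. The disease-associated list had a median effect of 1.98 in Ki67- and 1.19 in Ki67+ microglia, and 8 of its 35 members differed. Fabp5 stood out, with 4.37 in Ki67- against 0.17 ± 0.33 (SE) in Ki67+ cells. The difference of 4.19 had an adjusted p of 1.15e-05. Lpl (4.77 against 1.59, adjusted p of the difference 0.000821), Cst7 (5.77 against 3.15, 0.0341), Apoe (3.24 against 0.88, 0.0042) and Axl (3.23 against 1.28, 0.0123) also had larger effects in Ki67- cells.

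Trem2 rose by 1.53 in Ki67- and 1.27 in Ki67+ microglia, and the difference of 0.26 ± 0.30 (SE) did not pass (adjusted p = 0.65). For Ctsd the effects were 1.66 and 1.51, with a difference of 0.15 ± 0.30 (SE) and an adjusted p of 0.809. All 7 genes that the study names differed between the gates, beside 8.82% of all 12070 genes. They were picked on the Ki67- libraries that this contrast reuses, so the count is no independent evidence of a difference between the gates. Tecpr1, for example, had an effect of 0.24 in Ki67+ cells, and Psen2 one of -0.40. Slc16a3 (-0.18 in Ki67+) and Gapdh (0.40) differed as well, with adjusted p of 8.39e-06 and 0.0104.

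**Figure D5:**
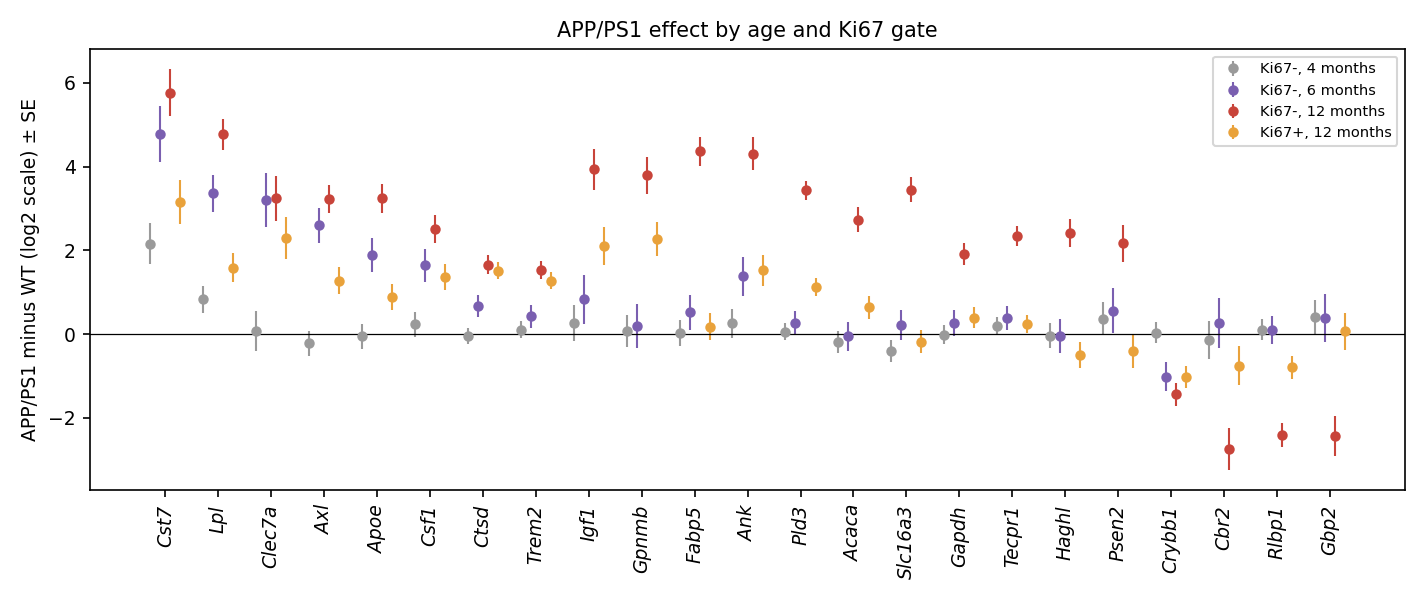
APP/PS1 minus WT difference (y axis, log2 scale, points with the SE of the limma fit as bars) of 23 genes in Ki67- microglia at 4, 6 and 12 months and in Ki67+ microglia at 12 months. Cst7 and Lpl pass the test at 6 months, whereas Fabp5, Pld3, Slc16a3 and Tecpr1 have larger effects in Ki67- cells at 12 months than in any of the other 3 comparisons.

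Few genes were called in younger Ki67- microglia. At 6 months 5 of the 12070 genes were called higher (0.0414%) and 2 lower (0.0166%), and at 4 months limma called 0 in either direction, with 354 and 307 at an unadjusted p under 0.05. The 6-month groups held 2 APP/PS1 and 3 WT libraries. The effect at 12 months differed from that at 6 months for 265 genes (2.2%), 146 upwards (1.21%) and 119 downwards (0.986%). Without WT replicate 1, 2 or 3, these were 56, 59 and 55 upwards and 35, 36 and 34 downwards. It differed from that at 4 months for 923 genes (7.65%), 499 upwards (4.13%) and 424 downwards (3.51%), and without WT replicate 1, 2 or 3 for 305, 297 and 305 upwards and 249, 243 and 246 downwards. The disease-associated list had a median effect of 0.925 at 6 months and 0.097 at 4 months, and 4 and 27 of its 35 members differed from 12 months. Cst7 had effects of 2.16, 4.78 and 5.77 at 4, 6 and 12 months, and Lpl of 0.83, 3.36 and 4.77. For both genes the difference between 12 and 6 months did not pass (adjusted p = 0.662 and 0.228).

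Other members of the program had larger effects at 12 than at 6 months. Fabp5 had effects of 0.02 and 0.52 at 4 and 6 months, and its 12-month effect differed from both (adjusted p = 3.37e-06 and 0.000491). Igf1 (0.83 at 6 months), Gpnmb (0.19) and Ank (1.38) also differed from 6 months, with adjusted p of 0.0363, 0.00756 and 0.0181. Pld3, which is outside the list of this program, had effects of 0.06 and 0.27 at 4 and 6 months. Its 12-month effect differed from both (limma adjusted p of the differences 2.99e-07 and 3.34e-05). Trem2 had effects of 0.11 and 0.42, and its 12-month effect differed from that at 4 months (adjusted p = 0.00481) and the difference from 6 months did not pass (adjusted p = 0.093).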

How the data were processed

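RNA of Ki67- and Ki67+ microglia was sequenced after reverse cross-linking, extraction with a kit for fixed tissue and amplification of full-length cDNA. The authors used read 1, bcl2fastq 2.20, kallisto 0.43.1 on GRCm38 and DESeq2, and took out the effect of 10 surrogate variables. What they deposited is a table of normalized log2-scale scores, 19151 genes by 42 libraries. Their exact transformation is not given in the sources used here, the depth behind them is unknown, and dots in gene names stand for hyphens.

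From these scores, group means were fitted with limma 3.58.1 in R 4.3.3 on the 14910 genes whose mean reached 7 in 1 or more of 12 groups. Residual degrees of freedom were set to 20, since the removed variables leave 20 of 30 directions. Tests were two-sided with Benjamini-Hochberg adjustment and a threshold of 0.05. An exact permutation test of 3 against 4 libraries cannot go below p = 0.0571 for a single gene. In simulated data for this comparison on 14910 genes, 196 of 200 genes shifted by 2 and 13 of 200 shifted by 1 were recovered. The simulated noise cancelled out within each group, so the group means carried none of it. A gene that was not shifted could therefore not be called, and the simulation gives no rate of false calls. The recovery shows only how often an estimated difference of exactly 2 or 1 passes the threshold. The study's own test was made on read counts, which these scores are not.

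Groups came from sample titles. The genes named were those the study names, per direction the 8 with the lowest p whose groups did not overlap and the 5 with the largest change and a mean of at least 9 in the higher group, up to 4 per list and direction, defining members, Mki67 and transgene-linked genes. Some of these genes are not reported here. Further genes of the lists were named to complete the account of a list. The members and lists were chosen with earlier results of these data known. Gene positions are from GENCODE M21 and promoter sequences from RefSeq. Alternatives covered filters, normalization, variance moderation, the libraries fitted, each library left out and, added after the data were seen, the library number run as a block.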

Additional observations from a re-analysis of the deposited data

Results flagged for a closer look

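In a group of 4 libraries, a highest or lowest value was taken as standing apart where its gap to the next value, divided by the whole range, exceeded Dixon's 95% critical value. Chance gives this for about 1 in 20 groups. Among the 4 APP/PS1 libraries it was met by Cxcl14 (0.868), Hspa1b (0.835), Tyrobp (0.868), Cd68 (0.85), Ifi27l2a (0.858), Hif1a (0.961), Gapdh (0.838), Pgk1 (0.851) and Mcm5 (0.85). The mean levels of 2 lists met it too, with 0.867 for the vacuolar proton pump list and 0.923 for the autophagy list. The groups of both genotypes did not overlap for Hif1a, Tyrobp, Cd68, Gapdh or Pgk1 with that library included.

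The APP/PS1 effect of the named genes was also tested against the effect in the other comparisons, in the same limma fit. Most of the 122 named genes were chosen on this contrast, and these tests reuse its libraries. An excess of differences among them is thus built in. Of the 122 named genes, 42 differed from the effect in Ki67+ microglia at 12 months, beside 8.82% of all 12070 genes. For the study's genes and those with the lowest p or the largest change, the effect minus that in Ki67+ microglia at 12 months was 2.10 for Tecpr1, 2.50 for Zdhhc4, 2.92 for Haghl, 4.19 for Fabp5, 1.61 for Myo1e, 2.19 for Cxcl14, 2.57 for Psen2, 2.31 for Pld3, 1.57 for Baiap2l2, 3.19 for Lpl, 3.63 for Slc16a3, 2.79 for Ank and 2.61 for Cst7. On the negative side it was -1.97 for X4933430I17Rik, -1.44 for Ntm, -1.61 for Rlbp1, -1.33 for Sparcl1, -2.06 for Unc5cl, -1.42 for Map4k1 and -2.51 for Gbp2. Of the 122 named genes, 24 differed from the effect in Ki67- microglia at 6 months, beside 2.2% of all 12070 genes. For the study's genes and those with the lowest p or the largest change, the effect minus that in Ki67- microglia at 6 months was 1.95 for Tecpr1, 2.47 for Haghl, 3.84 for Fabp5, 3.17 for Pld3, 3.23 for Slc16a3 and 2.94 for Ank. On the negative side it was -1.76 for X4933430I17Rik, -1.69 for Ctnnd2, -1.74 for Ntm, -2.51 for Rlbp1, -1.64 for Tsc22d3, -1.65 for Unc5cl, -3.01 for Cbr2 and -2.82 for Gbp2. Of the 122 named genes, 70 differed from the effect in Ki67- microglia at 4 months, beside 7.65% of all 12070 genes. For the study's genes and those with the lowest p or the largest change, the effect minus that in Ki67- microglia at 4 months was 2.14 for Tecpr1, 1.90 for Zdhhc4, 2.46 for Haghl, 4.35 for Fabp5, 2.85 for Myo1e, 1.18 for Cxcl14, 3.38 for Pld3, 2.18 for Baiap2l2, 3.94 for Lpl, 3.86 for Slc16a3, 4.05 for Ank and 3.61 for Cst7. On the negative side it was -1.81 for X4933430I17Rik, -2.20 for Ctnnd2, -2.13 for Ntm, -2.52 for Rlbp1, -3.12 for Sparcl1, -2.82 for Tsc22d3, -1.90 for Unc5cl, -1.92 for Map4k1, -2.61 for Cbr2, -2.84 for Gbp2 and -2.91 for Bcan.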

How the results depend on the processing

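No call of a named gene changed direction in any alternative. Over the 122 named genes and 21 alternatives, 384 calls were lost and 4 gained, 29 of the lost ones without each WT library in turn and 8 to 16 without an APP/PS1 library. Of the main counts (1259 higher, 1146 lower), fitting the ages compared alone gave 2308 and 2317, the 7 libraries alone 1772 and 1800, quantile normalization 1822 and 1916, not counting the removed directions 2024 and 1964, the spread of the 4 APP/PS1 libraries alone 373 and 310, a minimum difference of 0.5 260 and 160, libraries 4274 to 4277 alone 792 and 635, and libraries 4290 to 4293 alone 149 and 85. Which side held more calls turned in the first 3 of these and after subtracting library medians (1294 and 1301). The library number run as a block, added after the data were seen, gave 1190 and 1066, of which 1157 and 1040 were called without it, and 5 of the 122 named genes lost their call (H2.K1, Mag, Mef2c, Socs3 and Stat3). Leaving out 1 library gave 832 to 1230 higher and 684 to 1121 lower, and the lower end came from leaving out WT libraries.

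For the difference from Ki67+ (544 positive, 521 negative), the ages compared alone gave 1553 and 1791, uncounted directions 1251 and 1382, quantile normalization 1054 and 1410, and a minimum difference of 0.5 65 and 30, with 335 to 583 and 304 to 573 without 1 library. For the difference from 6 months (146 and 119), the same 4 gave 723 and 693, 725 and 662, 591 and 609, and 8 and 4, with 55 to 190 and 34 to 143 without 1 library. For that from 4 months (499 and 424), they gave 938 and 846, 1267 and 1183, 1120 and 1099, and 91 and 37, with 297 to 546 and 243 to 466 without 1 library. The negative side held more calls against Ki67+ in the first 3 of these 4, without a filter (483 and 511), with a variance trend (526 and 541), after subtracting library medians (525 and 743) and without APP/PS1 replicate 1 (562 and 573) or 3 (560 and 565), and against 6 months after quantile normalization. The lower ends without 1 library came from WT libraries. The cause was not tested. No paired analysis was possible because the labels carry no replicate numbers shared between groups, and the block on library number runs above stands in its place. The depth behind the values is unknown, so what it limits cannot be stated.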

Other observations

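Further gene groups were listed after their values were seen, so their counts are descriptions. Over all 12070 genes, 10.4% were called higher and 9.49% lower. At an unadjusted p under 0.05, 2100 of them were higher and 2050 lower. Of 15 heat shock chaperones, limma called 8 lower and 0 higher in APP/PS1, with a median difference of -1.08 (10 and 1 at an unadjusted p under 0.05). They included Hsph1 (-2.40, adjusted p = 0.000354), Dnaja1 (-1.67, adjusted p = 0.000218) and Hspa8 (-0.98, adjusted p = 0.0144). Of 15 genes that respond to glucocorticoids or belong to the circadian clock, 7 were lower and 1 was higher, with a median of -0.81. They included the clock repressor Nr1d1 (-2.04, adjusted p = 4.6e-05), the chaperone partner Fkbp5 (-1.43, adjusted p = 0.00405), Klf9 (-1.46, adjusted p = 0.00192) and, as the one called higher, Per3 (1.09, adjusted p = 0.0219).

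Of 11 peroxiredoxin, thioredoxin and superoxide dismutase genes, 6 were higher and 0 were lower, with a median of 0.84 (6 and 0 at an unadjusted p under 0.05). Mitochondrial Prdx3 (2.19, adjusted p = 4.6e-05) and Prdx4 (2.10, adjusted p = 3.97e-05) of the endoplasmic reticulum led. Of 19 genes of cholesterol synthesis, 4 were higher and 2 were lower, with Dhcr7 (2.12, adjusted p = 1.32e-05) at one end and Sqle (-1.18, adjusted p = 0.0198) at the other. Of 81 ribosomal protein genes, 26 were higher and 0 were lower, with a median of 0.59 (43 and 0 at an unadjusted p under 0.05). Rpsa (1.42, adjusted p = 7.5e-05) and Rps2 (1.40, adjusted p = 7.33e-05) led, and both have many processed pseudogenes that can share reads.

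Growth hormone, Gh, a pituitary transcript, was at 4.29, 4.13 and 3.92 in the WT libraries and 7.28, 8.74, 5.21 and 15.52 in the APP/PS1 libraries. The 4 APP/PS1 values spread over more than 10 units, with replicate 4 far above the rest, and the difference of 5.08 had an adjusted p of 0.0123. Pomc, another pituitary transcript, had a mean below 7 in each group, so it was not among the 12070 genes. It was at 4.41, 4.42 and 4.40 in the WT libraries and 7.31, 8.61, 6.12 and 5.78 in the APP/PS1 libraries. In the limma fit Pomc was higher by 2.54 and passed the test (adjusted p = 0.0199). The other pituitary hormones listed, Prl, Lhb, Cga and Tshb, were also below 7 in each group. They differed by 0.81, 0.58, 0.61 and -0.05 and did not pass the test.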
